A study of Mus musculus with 41 samples.

Results

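The genes of complement and of blood coagulation were followed through mouse liver disease: 44 listed genes of the 24511 in the table, chosen by symbol. No measured value served as a rule for the choice, but earlier results of these data were known when it was made. The same holds for the gene lists set beside these members. They comprise 25 complement genes and 19 coagulation genes. All 44 were among the 12337 genes whose mean reached 3 on the log2 scale, which were the genes tested. The question asked of them was which hepatocyte-made plasma proteins keep their transcript level in liver tumours while metabolic genes fall.

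RNA with a polyA tail was sequenced from livers and liver tumours of male C57BL/6 mice, whose age the labels do not give. On a high-fat diet (HFD), B6 and IgAkCLM mice gave fatty livers called healthy (HFD control), MupHe and IgAkMup mice gave livers with steatohepatitis (NASH), and MupHe, IgAkMup and CD8kMup mice gave hepatocellular carcinomas (HCC). B6, MupHe, IgAkMup and CD8kMup mice also gave healthy livers in groups called NC, whose meaning is not stated. In all, 35 libraries in 11 groups were used: 4 each of MupHe HCC and IgAkMup HCC, and 3 of every other group. From knowledge of the study and not from its labels, Mup stands for MUP-uPA mice, which carry a urokinase transgene driven in hepatocytes by the promoter of a major urinary protein gene, and IgAk and CD8k for mice that lack IgA and CD8. Every NASH and HCC group carries Mup in its name, so no tumour or NASH group is free of the transgene. Whether replicates came from separate animals is not stated, so p-values measure only the spread between these samples, which may be technical.

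Complement is a cascade of plasma proteases that starts on C1q and antibody (classical pathway), on mannose-binding lectins (lectin pathway) or by itself (alternative pathway), meets at C3 and ends in a pore formed by the terminal components. Coagulation runs from the contact and intrinsic factors, or from tissue factor and factor VII (extrinsic pathway), to factor X and thrombin, which cuts fibrinogen to fibrin. The liver makes nearly all of these proteins, while C1q, properdin and the C5a receptor come largely from macrophages and other myeloid cells.

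Sequences upstream of 6 members are printed to show genes that moved together or did not pass the test: Fgb and Fgg, fibrinogen genes on either side of Fga that did not pass the test between tumours and NASH livers; C8a and C8b, neighbours that fell; and C3 and C4bp, which rose. Each is the 250 bases before the RefSeq transcription start in GRCm38.p6, 5′ to 3′ in the direction of transcription. Fgb is chr3:83049864-83050113 and C8a chr4:104876399-104876648, both on the minus strand. C3 is chr17:57228137-57228386 and C4bp chr1:130661619-130661868, also on the minus strand. Fgg is chr3:83007474-83007723 and C8b chr4:104766067-104766316, both on the plus strand. Capitals mark a match on either strand to the C/EBP motif TTGCNNAA (Fgb, C3) or to an HNF1 consensus motif (C4bp).
Fgb: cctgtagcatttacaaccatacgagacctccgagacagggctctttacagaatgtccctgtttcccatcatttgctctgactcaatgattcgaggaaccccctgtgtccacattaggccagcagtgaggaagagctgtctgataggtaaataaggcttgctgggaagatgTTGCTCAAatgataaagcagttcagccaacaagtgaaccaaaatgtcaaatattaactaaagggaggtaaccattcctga
Fgg: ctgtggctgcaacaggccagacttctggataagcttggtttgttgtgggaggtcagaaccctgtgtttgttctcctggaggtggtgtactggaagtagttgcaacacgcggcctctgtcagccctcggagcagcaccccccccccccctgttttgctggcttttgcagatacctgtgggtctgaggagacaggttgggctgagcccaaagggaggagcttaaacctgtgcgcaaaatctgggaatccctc
C8a: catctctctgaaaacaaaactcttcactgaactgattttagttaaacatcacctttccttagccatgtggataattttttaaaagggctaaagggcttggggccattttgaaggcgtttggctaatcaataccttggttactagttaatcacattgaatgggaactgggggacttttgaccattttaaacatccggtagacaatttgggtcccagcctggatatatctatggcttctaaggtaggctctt
C8b: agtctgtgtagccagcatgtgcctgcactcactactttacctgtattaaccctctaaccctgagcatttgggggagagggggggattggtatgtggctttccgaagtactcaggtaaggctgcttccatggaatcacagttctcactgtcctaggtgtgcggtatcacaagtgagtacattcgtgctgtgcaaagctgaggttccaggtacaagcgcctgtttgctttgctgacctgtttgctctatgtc
C3: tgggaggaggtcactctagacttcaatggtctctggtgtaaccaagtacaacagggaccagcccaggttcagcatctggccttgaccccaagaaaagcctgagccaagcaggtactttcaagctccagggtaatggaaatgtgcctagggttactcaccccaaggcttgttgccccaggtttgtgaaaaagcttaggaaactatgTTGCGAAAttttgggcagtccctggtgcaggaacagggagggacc
C4bp: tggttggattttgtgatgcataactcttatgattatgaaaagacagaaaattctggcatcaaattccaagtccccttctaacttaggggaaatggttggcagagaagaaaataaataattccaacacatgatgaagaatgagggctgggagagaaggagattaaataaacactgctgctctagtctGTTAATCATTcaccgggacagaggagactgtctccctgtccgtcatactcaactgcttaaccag

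Of the 44 members, 35 had such a sequence. The C/EBP motif stood in 8 of the 35 members (22.9%), against 10.8% of 27025 genes. The HNF1 motif stood in 3 members (8.57%), Hc, C4bp and F13b, against 0.440% of genes. The HNF4 motif CAAAGTCCA stood in 0 members against 0.451% of genes, and TATAAA in 3 members (8.57%) against 14.3%. HNF1, HNF4 and C/EBP are transcription factors of hepatocytes. The motifs were found both in members that fell (Klkb1, F11) and in members that did not pass the test (Fga, Fgb, Hc, F13b), and a match is a description of the letters only.

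The values are regularized log2 (rlog2) values, in which 1 unit is 2-fold, and the depth of the libraries is unknown. Differences are given with their standard error, and adjusted p-values are limma's, adjusted over all 12337 genes. The median of the tested genes lay between 7.11 and 7.22 in every library. Plau, which encodes urokinase, stood at 4.38 ± 0.17 (SD, n = 3) in B6 NC and 4.80 ± 0.06 in MupHe NC livers. It reached 5.72 ± 0.39 in MupHe NASH and 6.71 ± 1.60 (n = 4) in MupHe tumours. B6 HFD control livers, whose name lacks Mup, held it at 5.24 ± 0.34, above the mean of MupHe NC livers. On the second principal component 3 tumours stood apart, MupHe HCC 3 (-29.1), IgAkMup HCC 5 (-28.4) and IgAkMup HCC 9 (-35.6), against -5.12 to 24.7 in the other 8, and counts are given with and without them. Column names also hold a tag of unstated meaning, which all HCC columns share, all NC columns share, and the NASH columns of MupHe and IgAkMup mice do not share with each other. Tag and group cannot be told apart. The hepatocyte markers albumin (Alb) and Hnf4a differed by -0.06 ± 0.31 and -0.12 ± 0.08 between tumours and NASH livers, whereas 5 of 8 hepatocyte markers fell. In whole tissue, fewer cells of a type and less RNA per cell cannot be told apart.

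Over MupHe and IgAkMup mice together, none of the extrinsic, common pathway or fibrin genes passed the test between tumours and NASH livers. All 4 genes of mannose-binding lectins and their proteases and 4 of the 6 terminal components fell, and C2, C3 and C4bp rose. In IgAkMup mice alone F2 (-0.40) and F13b (-0.45) were called lower. Over MupHe and IgAkMup mice (8 tumours, 6 NASH livers), 24 of 44 members passed the test, 9 higher and 15 lower, against 48.4% of all genes tested (25.5% higher, 22.9% lower). The share of members called was thus near that of all genes. The whole 95% confidence interval lay within 2-fold for 31 members, against 83.1% of all genes, and for each of the 20 members that did not pass the test. The members' median difference was -0.07, against 0.01 over all genes. In the 5 metabolic lists, 65 of 72 genes fell, 0 rose, and the median was -1.31. The P450 enzymes of drug and steroid metabolism had a median of -2.68 (16 of 17 fell), bile acid synthesis and transport -1.73 (10 of 12), urea cycle and amino acid metabolism -1.41 (19 of 20), fatty acid oxidation -0.77 (15 of 15) and glucose metabolism -0.56 (5 of 8). Cyp4a14, a fatty acid hydroxylase, changed by -5.11 ± 0.48 and Oat, ornithine aminotransferase, by -4.47 ± 0.25.

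**Figure D1:**
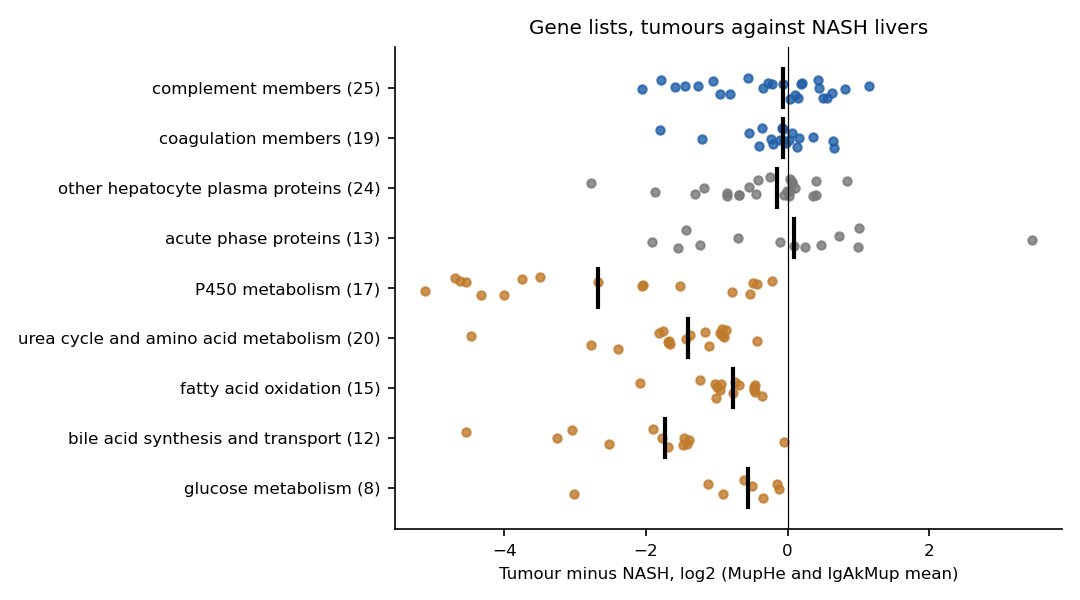
Difference between tumours and NASH livers (log2, MupHe and IgAkMup mean) for each gene of the complement and coagulation members, of other plasma protein lists and of the 5 metabolic lists; points are genes, the black bar is the median of a list and the number of genes stands in brackets. The complement and coagulation medians (both -0.07) lie near 0, and the metabolic medians between -2.68 and -0.56.

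Of the 19 coagulation genes, 2 rose, 5 fell, 12 did not pass and 16 lay within 2-fold. Of the 25 complement genes, 7 rose, 10 fell, 8 did not pass and 15 lay within 2-fold. The difference between coagulation and complement was not tested. Other plasma proteins of hepatocytes had a median of -0.15, with 3 of 24 higher and 10 lower, and 15 within 2-fold. Among them Serpina3k, a protease inhibitor, changed by -2.77 ± 0.45 and Apoc3, an apolipoprotein, by -1.88 ± 0.33. Without the 3 tumours that stood apart, 23 members passed (10 higher, 13 lower) and 35 lay within 2-fold, and 66 of 72 metabolic genes fell.

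The direction of this count depended on how libraries were scaled. After quantile normalization, which forces every library to the same distribution of values, 35 members passed, 24 higher and 11 lower, with a median of 0.33. The members are abundant transcripts, and 17 of them had a mean of 12 or more, where this scaling moved the median difference of all such genes by 0.43. Median centring gave 9 higher and 17 lower. The metabolic genes fell under each scaling (52 of 72 lower and 1 higher after quantile normalization). Members that were called and kept both call and direction in all 8 alternative settings, and without any 1 of the 14 libraries, were C2, C3, C4bp and Pros1 (higher) and Mbl1, Mbl2, Masp2, C6, C8a, C8b, C8g and Klkb1 (lower). C5ar1 (higher) did so in the 7 settings that tested it. With only the compared groups fitted, 17 members passed (6 higher, 11 lower), and C1qa, C1qc, Serping1, F11, F9, Kng1 and Proz lost their calls (adjusted p from 0.0531 to 0.206). With IgAkMup NASH as the only control 18 passed (5 higher, 13 lower), and the 3 C1q genes, Masp1, F11, F9 and Kng1 lost theirs (adjusted p from 0.0621 to 0.135).

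**Figure D2:**
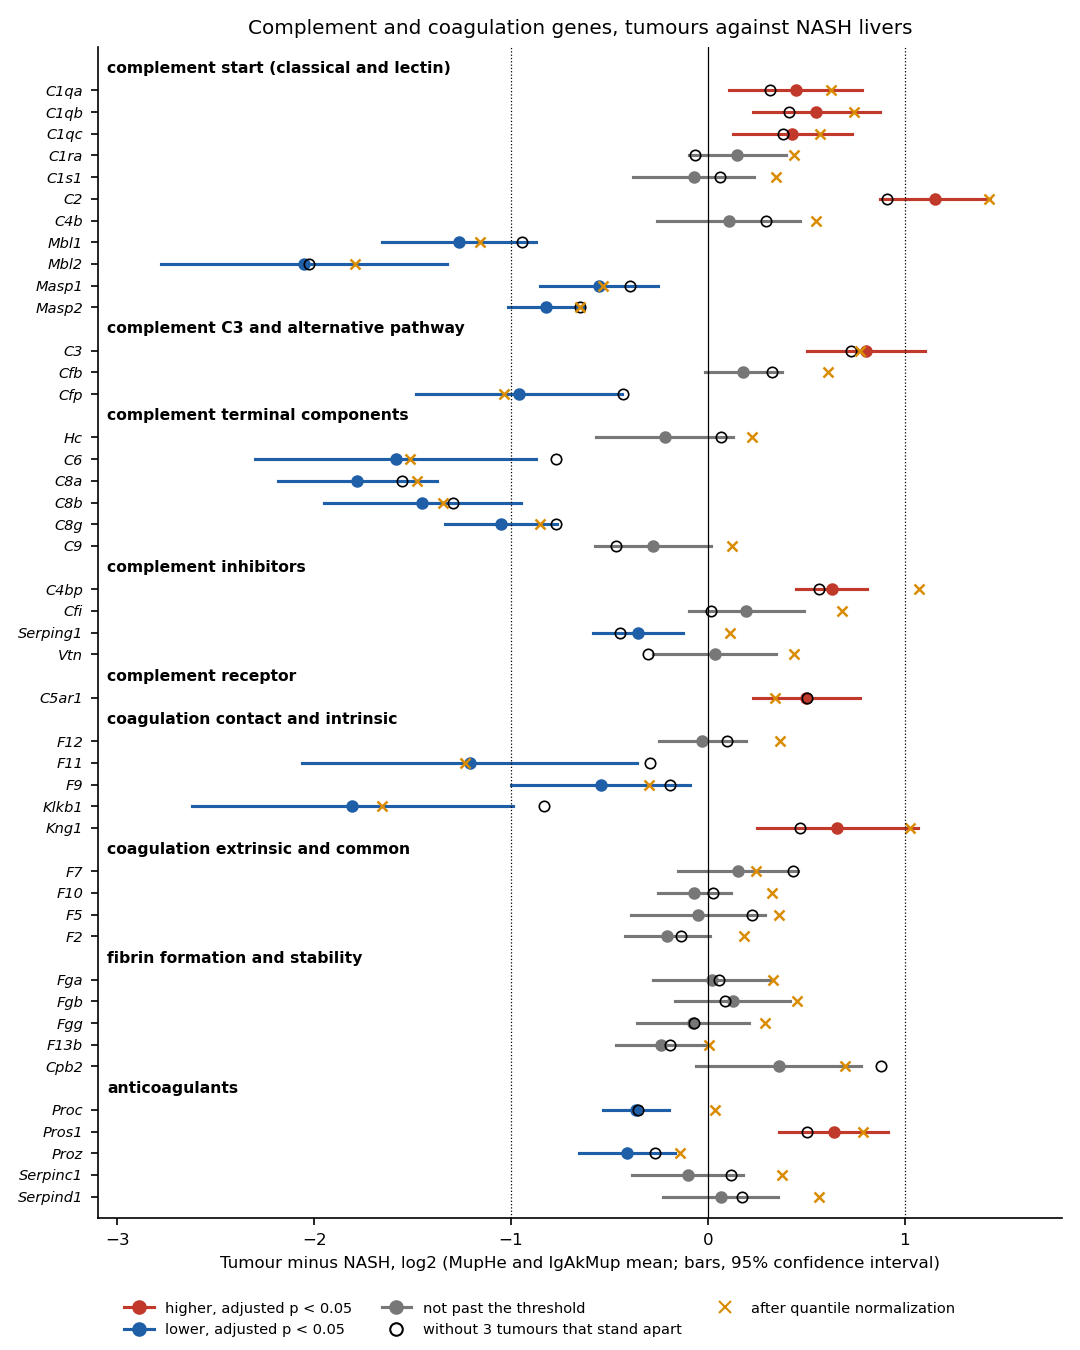
Difference between tumours and NASH livers (log2 on the horizontal axis, MupHe and IgAkMup mean) for the 44 members by role; filled points with 95% confidence intervals are the values as deposited, open circles leave out the 3 tumours that stood apart, crosses follow quantile normalization, and dotted lines mark a 2-fold difference. C8a, C8b, Mbl2 and Klkb1 lie at the lower end, C2 at the upper end, and the fibrinogen genes near 0.

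Fibrinogen, the precursor of the clot, showed no detectable change on the deposited scale over both genotypes, whose differences had opposite signs. Fga, which encodes its alpha chain, stood at 14.44, 14.29, 15.03 and 14.92 in the MupHe tumours and 15.28, 15.72, 14.81 and 15.46 in the IgAkMup tumours. The NASH livers stood at 14.88, 14.76 and 15.30 (MupHe) and 14.96, 14.99 and 14.94 (IgAkMup). The groups overlapped, with tumours both above and below all NASH livers. The difference was 0.02 ± 0.15, with an interval from -0.28 to 0.32 (adjusted p = 0.924). This mean covered -0.31 in MupHe mice (adjusted p = 0.263) and 0.35 in IgAkMup mice (adjusted p = 0.172). The genotypes' effects did not differ detectably (0.66, adjusted p = 0.146).

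Fgb, the beta chain, stood at 14.44, 14.52, 14.96 and 14.57 in the MupHe tumours and 15.22, 15.65, 14.52 and 15.40 in the IgAkMup tumours. The NASH livers held 14.62, 14.54 and 14.98 (MupHe) and 14.91, 14.88 and 14.76 (IgAkMup), so the groups again overlapped. Fgb differed by 0.13 ± 0.14 (adjusted p = 0.485) and Fgg, the gamma chain, by -0.07 ± 0.14 (adjusted p = 0.693). Fgg ranged from 13.96 to 15.25 over the 11 tumours (median 14.57) and from 14.36 to 14.91 over the 6 NASH livers. After quantile normalization all 3 chains were called higher, Fga by 0.33, Fgb by 0.45 and Fgg by 0.29. On the deposited scale, Fgb stood at -0.09 in MupHe and 0.34 in IgAkMup mice, and Fgg at -0.27 and 0.13, none called.

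F13b, a subunit of the factor XIII that crosslinks fibrin, stood at 10.48, 10.21, 11.23 and 11.08 in the MupHe tumours and 10.36, 10.25, 10.49 and 10.75 in the IgAkMup tumours. The NASH livers, from 10.66 to 10.96, lay above 5 of the 8 tumours. It differed by -0.24 ± 0.11 (adjusted p = 0.0874). It was called lower after median centring (-0.28) and without MupHe HCC 4 (-0.32), MupHe HCC 7 (-0.29) or IgAkMup HCC 9 (-0.28), and stood at 0.01 after quantile normalization. In IgAkMup mice alone F13b was called lower (-0.45, adjusted p = 0.0258), and in MupHe mice it stood at -0.03 (adjusted p = 0.92). Cpb2, a carboxypeptidase that slows fibrin breakdown, differed by 0.36 ± 0.20 (adjusted p = 0.148). It was called higher by 0.88 without the 3 tumours that stood apart (IgAkMup HCC 5 and 9 and MupHe HCC 3, where it was at 10.49, 10.43 and 10.96), and leaving out any 1 of them also gave a call (0.48 to 0.52).

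None of the 4 extrinsic and common pathway genes passed the test, and all 4 intervals lay within 2-fold. F10, which encodes factor X, had the narrowest interval of the members within 0.5 of 0, from -0.26 to 0.12, around -0.07 ± 0.09 (adjusted p = 0.554). It stood at 11.18, 11.07, 11.68 and 11.76 in the MupHe tumours and 11.49, 11.60, 11.51 and 11.33 in the IgAkMup tumours. Its NASH levels were 11.36, 11.29 and 11.52 (MupHe) and 11.84, 11.58 and 11.52 (IgAkMup), and overlapped the tumours. F2, which encodes prothrombin, stood at 13.40, 13.63, 13.17 and 13.85 and at 13.11, 13.87, 13.27 and 13.32 in the tumours of MupHe and IgAkMup mice. In NASH it held 13.45, 13.49 and 13.63 and then 13.90, 13.80 and 13.68, so most tumours lay below most NASH livers without separating from them. Its difference of -0.21 ± 0.11 (adjusted p = 0.108) was called lower after median centring (-0.25), without MupHe HCC 7 (-0.26), without IgAkMup HCC 7 (-0.29) and with IgAkMup NASH as the only control (-0.34), and was 0.18 after quantile normalization. In IgAkMup mice alone F2 was called lower (-0.40, adjusted p = 0.0314), and in MupHe mice it stood at -0.01 (adjusted p = 0.955). The IgAkMup call was lost without the 3 tumours that stood apart (-0.22, adjusted p = 0.284).

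F5, the cofactor of factor X, differed by -0.05 ± 0.17, and F7, which starts the extrinsic pathway, by 0.15 ± 0.15. F7 was called higher without the 3 tumours that stood apart (0.43, adjusted p = 0.003). After quantile normalization F10 (0.32) and F5 (0.36) were called higher.

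The contact and intrinsic genes were the coagulation group with the largest falls and the widest spread between tumours. Klkb1, which encodes plasma prekallikrein, stood at 10.45, 7.17, 11.27 and 10.65 in the MupHe tumours and 8.07, 10.39, 10.22 and 8.37 in the IgAkMup tumours. The NASH livers stood close together at 11.18, 11.26 and 11.60 and at 11.50, 11.31 and 11.44. The lowest tumours were MupHe HCC 3 and IgAkMup HCC 5 and 9, and MupHe HCC 4 reached the level of the NASH livers. Klkb1 fell by 1.81 ± 0.40 (adjusted p = 0.000477), and stood at -0.83 without those 3 tumours.

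F11, which encodes factor XI, fell by 1.21 ± 0.42 (adjusted p = 0.0175), with tumours from 6.03 to 10.29 around NASH livers from 8.70 to 9.04. The 3 tumours that stood apart held its 3 lowest values (6.13, 6.51 and 6.03), and without them the difference was -0.29 (adjusted p = 0.449). F9, which encodes factor IX, fell by 0.54 ± 0.22 (adjusted p = 0.0444), a call near the threshold. With each of 14 libraries left out in turn, only 3 of the fits kept this call. It was lost without MupHe HCC 3, where F9 was lowest at 9.19 (-0.28 without it, adjusted p = 0.0631). Leaving out MupHe HCC 7, IgAkMup HCC 5, 8 or 9, or any NASH liver also ended the call, at adjusted p-values from 0.0514 to 0.0922 and differences from -0.58 to -0.49.

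F12, factor XII, stood at 11.90, 11.77, 11.76 and 11.55 in the MupHe tumours and 10.82, 11.99, 11.45 and 11.57 in the IgAkMup tumours. The NASH livers, from 11.49 to 11.80, lay inside that range. Its difference was -0.03 ± 0.11 (adjusted p = 0.85), with an interval from -0.25 to 0.19, and 0.37 and called higher after quantile normalization. In contrast to the other contact genes, Kng1, which encodes kininogen, rose by 0.66 ± 0.20 (adjusted p = 0.00755). It stood at 13.61, 14.70, 14.31 and 13.88 in the MupHe tumours, at 14.23, 15.10, 13.11 and 14.72 in the IgAkMup tumours, and at 13.20 to 13.95 in NASH livers. The 3 tumours that stood apart held it at 14.70, 14.23 and 14.72, and without them it was at 0.47 (adjusted p = 0.0671). Its call was also lost with only the compared groups fitted (adjusted p = 0.0882) and with IgAkMup NASH as the only control (0.47, adjusted p = 0.135). Reads of Kng1 and its near-identical neighbour Kng2, which rose by 0.69 ± 0.12, may be split between them by the counting.

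Among the anticoagulants, over both genotypes together, protein S rose and antithrombin did not pass the test. Serpinc1, antithrombin, stood at 13.97, 13.30, 14.53 and 14.57 in the MupHe tumours and 13.37, 13.64, 14.0001 and 13.56 in the IgAkMup tumours. In NASH livers it was at 13.85, 13.80 and 13.90 and at 14.25, 13.998 and 14.01, inside the range of the tumours. Its difference was -0.10 ± 0.14 (adjusted p = 0.569), and 0.38 and called after quantile normalization. This mean covered 0.24 ± 0.20 in MupHe mice (adjusted p = 0.365) and -0.44 ± 0.20 in IgAkMup mice (adjusted p = 0.0657), whose difference did not pass (-0.69 ± 0.28, adjusted p = 0.109). Serpinc1 without the 3 tumours that stood apart was called higher in MupHe mice (0.51, adjusted p = 0.0067), stood at -0.27 in IgAkMup mice (adjusted p = 0.171), and the genotypes' effects differed (-0.77, adjusted p = 0.0121). Serpind1, heparin cofactor II, differed by 0.07 ± 0.14 and was called higher by 0.57 after quantile normalization. It stood at 0.49 in MupHe mice (adjusted p = 0.0632) and at -0.36 in IgAkMup mice (adjusted p = 0.15). On leaving out the 3 tumours that stood apart it was called higher in MupHe mice (0.67), and the genotypes' effects differed (-0.99, adjusted p = 0.018).

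Pros1, protein S, stood at 10.63, 10.08, 10.16 and 9.78 in the MupHe tumours, above all NASH livers (9.10 to 9.36). Of the IgAkMup tumours, at 9.68, 9.30, 9.31 and 10.12, only IgAkMup HCC 5 and 9 lay above that range. It rose by 0.64 ± 0.14 (adjusted p = 0.000303). Taken alone, MupHe mice passed (0.89, adjusted p = 0.000915) and IgAkMup mice did not (0.39, adjusted p = 0.0961). Without the 3 tumours that stood apart Pros1 was at 0.91 in MupHe and 0.10 in IgAkMup mice (adjusted p = 0.000439 and 0.733). The genotypes' effects then differed (-0.82, adjusted p = 0.0405). Proc, protein C, fell by 0.36 ± 0.08 (adjusted p = 0.000623), and Proz, protein Z, fell by 0.41 ± 0.12 (adjusted p = 0.00521). After quantile normalization Proc stood at 0.04 and Proz at -0.14, neither called. Without the 3 tumours that stood apart, Proz was at -0.27 (adjusted p = 0.0535).

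**Figure D3:**
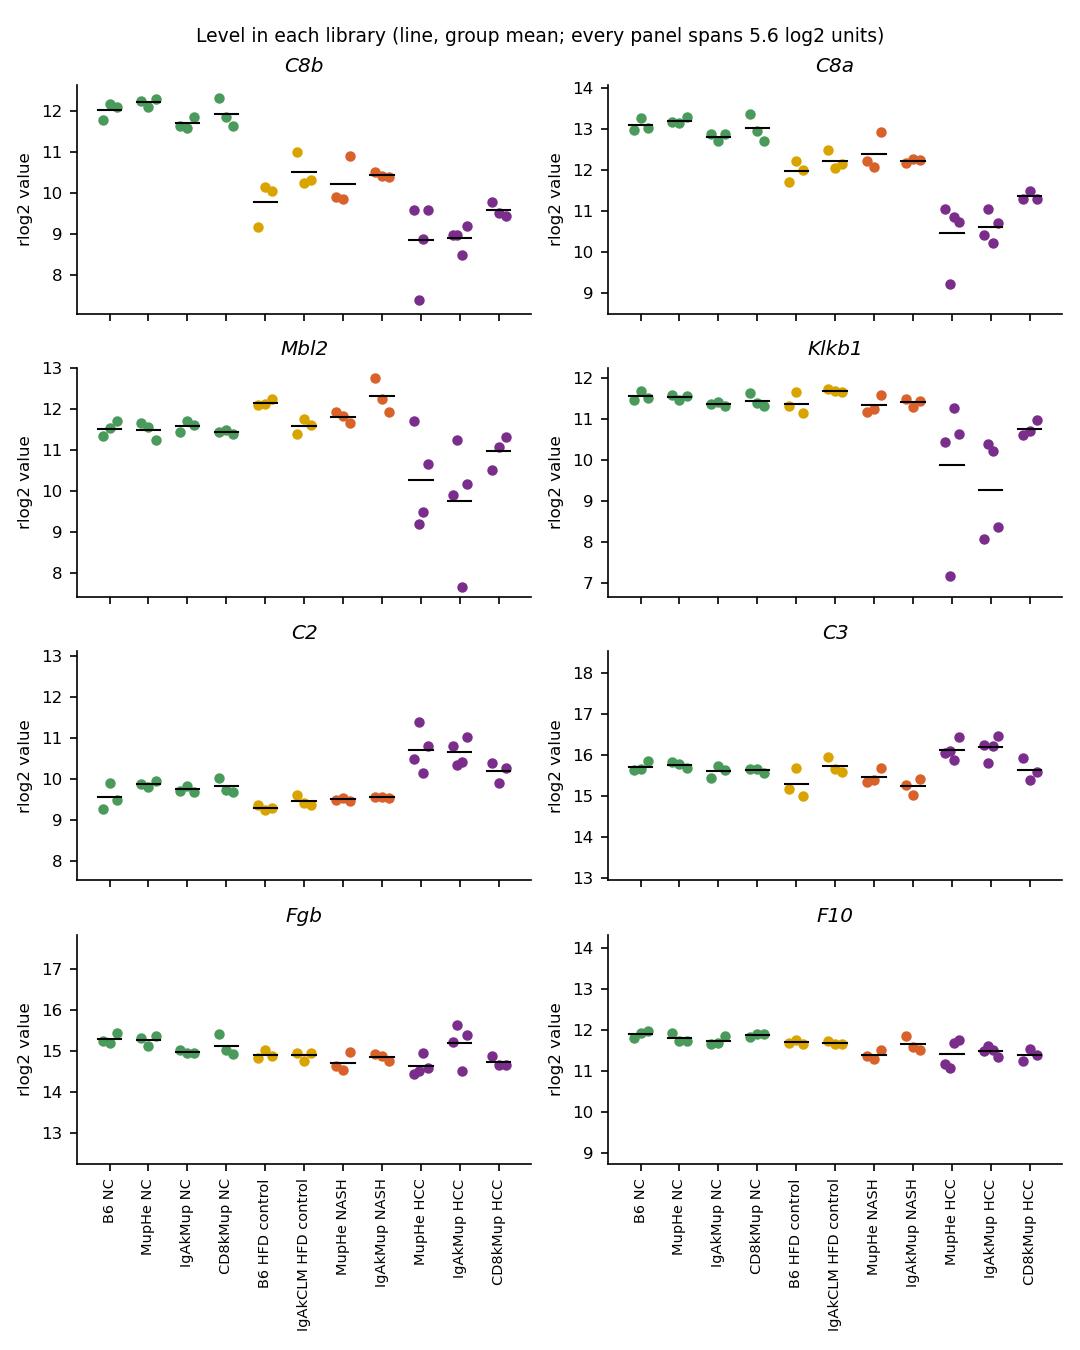
rlog2 value (vertical axis) of 8 members in each of the 35 libraries, by group; points are libraries and lines group means. C8b and C8a step down from NC to HFD and NASH livers and again in tumours, Mbl2 and Klkb1 scatter widely in tumours, C2 and C3 are higher in MupHe and IgAkMup tumours than in NASH livers, and Fgb and F10 overlap in tumours and NASH livers.

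The lectins and lectin-bound proteases that start the lectin pathway fell between tumours and NASH livers. Over both genotypes together Mbl1, Mbl2, Masp1 and Masp2 were each called lower. C2, which the lectin pathway shares with the classical pathway, rose. Mbl2, mannose-binding lectin C, stood at 11.72, 9.20, 9.49 and 10.66 in the MupHe tumours and 9.91, 11.24, 7.65 and 10.18 in the IgAkMup tumours. In NASH livers Mbl2 was at 11.93, 11.82 and 11.65 and at 12.77, 12.25 and 11.93. All but MupHe HCC 2 lay below every NASH liver. Mbl2 fell by 2.05 ± 0.35 (adjusted p = 2.63e-05), with an interval from -2.78 to -1.33.

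Mbl1, mannose-binding lectin A, stood at 9.89, 8.35, 10.56 and 9.67 and at 8.81, 8.89, 9.43 and 8.64 in the MupHe and IgAkMup tumours. The NASH livers lay between 10.30 and 10.81, above all tumours except MupHe HCC 4. Mbl1 fell by 1.26 ± 0.19 (adjusted p = 4.42e-06). The lectin-bound proteases Masp2 and Masp1 changed by -0.82 ± 0.09 (adjusted p = 5.85e-08) and -0.55 ± 0.15 (adjusted p = 0.00275). The tumours' Masp2 levels, 9.37 to 10.05, lay below all NASH levels, 10.48 to 10.76. With IgAkMup NASH as the only control Masp1 was at -0.40 (adjusted p = 0.0813). Masp1 passed in IgAkMup mice alone (-0.72, adjusted p = 0.00614) and not in MupHe mice alone (-0.38, adjusted p = 0.168).

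C2, a protease shared by the classical and lectin pathways, showed the largest rise of the 44 members. It stood at 10.48, 11.40, 10.16 and 10.82 in the MupHe tumours, 10.80, 10.35, 10.43 and 11.04 in the IgAkMup tumours, and between 9.47 and 9.56 in all 6 NASH livers. The groups did not overlap. C2 rose by 1.15 ± 0.14 (adjusted p = 9.1e-08). C1ra, a protease of the C1 complex, stood at 11.04, 11.13, 10.87 and 10.63 in the MupHe tumours and 10.88, 10.33, 10.30 and 11.18 in the IgAkMup tumours, on both sides of the NASH livers (10.50 to 10.77). The hepatocyte genes of the classical pathway other than C2 did not pass: C1ra differed by 0.15 ± 0.12, C1s1 by -0.07 ± 0.15 and C4b by 0.11 ± 0.18, and all 3 were called higher after quantile normalization (0.44, 0.35 and 0.55). Their near-identical copies C1rb, C1s2 and C4a may share reads with them.

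The 3 genes of C1q, the recognition subunit, were called higher in tumours over both genotypes together. C1qb stood at 10.37, 10.72, 9.81 and 9.55 in the MupHe tumours and 9.93, 9.57, 10.32 and 10.26 in the IgAkMup tumours. The NASH livers stood at 9.20, 9.70 and 9.30 and at 9.70, 9.71 and 9.47, so the 2 lowest tumours overlapped with them. C1qb rose by 0.55 ± 0.16 (adjusted p = 0.00458), C1qa by 0.45 ± 0.17 (adjusted p = 0.0264) and C1qc by 0.43 ± 0.15 (adjusted p = 0.0179). In MupHe mice alone C1qb passed (0.71, adjusted p = 0.0156), and C1qa (0.58) and C1qc (0.47) did not (adjusted p = 0.0607 and 0.0863). In IgAkMup mice alone C1qa, C1qb and C1qc stood at 0.32, 0.39 and 0.38, none called (adjusted p = 0.277, 0.152 and 0.138).

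C1qa stood at 10.33, 10.60, 9.56 and 9.44 and at 9.67, 9.42, 10.13 and 10.08 in the tumours of MupHe and IgAkMup mice, against 9.21 to 9.74 in NASH livers. Without the 3 tumours that stood apart it was at 0.32 (adjusted p = 0.127). Its call was also lost without any 1 of MupHe HCC 2 or 3, IgAkMup HCC 8 or 9, MupHe NASH 1 or 6, or IgAkMup NASH 6 (differences from 0.34 to 0.41, adjusted p-values from 0.0521 to 0.0752). The call of C1qc was lost without MupHe NASH 6 (0.39, adjusted p = 0.0504). With IgAkMup NASH as the only control none of the C1q genes passed (C1qb 0.44, adjusted p = 0.0729).

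Markers of macrophages moved beside C1q. Of 10 macrophage markers 7 rose and 0 fell (median 0.88), and of 6 markers of Kupffer cells, the resident macrophages of the liver, 6 fell (median -2.31). The log2 of the summed macrophage markers ran from 10.9 to 11.4 in NASH livers and from 11.3 to 12.6 in MupHe and IgAkMup tumours. That of the Kupffer cell markers ran from 11.4 to 12.1 and from 7.08 to 11.8, and 0 markers of either list were at 0 throughout. Their part in the C1q values was not tested.

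C3, on which all pathways meet, stood at 16.06, 16.09, 15.89 and 16.46 in the MupHe tumours and 16.25, 15.82, 16.22 and 16.47 in the IgAkMup tumours. The NASH livers stood at 15.34, 15.39 and 15.68 and at 15.27, 15.03 and 15.41, below every one of these tumours. C3 rose by 0.81 ± 0.15 (adjusted p = 5.12e-05). Against NC livers, over MupHe, IgAkMup and CD8kMup mice, the rise of C3 was 0.31 (adjusted p = 0.0293). Without the 3 tumours that stood apart that rise was 0.26 and did not pass (adjusted p = 0.0652). Cfb, factor B of the alternative pathway, stood at 13.45, 13.10, 13.31 and 13.61 and at 13.11, 13.43, 13.62 and 13.15 in the tumours of MupHe and IgAkMup mice, against 13.05 to 13.34 in NASH livers. The groups overlapped, and Cfb differed by 0.18 ± 0.09 (adjusted p = 0.116), with an interval from -0.01 to 0.38. It was called higher without MupHe HCC 3 (0.23, adjusted p = 0.0446), without the 3 tumours that stood apart (0.33) and after quantile normalization (0.61). Cfp, which encodes properdin, the stabilizer of the alternative convertase, fell by 0.96 ± 0.26 (adjusted p = 0.00281). It stood at 8.36, 5.92, 6.99 and 6.80 in the MupHe tumours, at 6.20, 7.31, 7.73 and 6.07 in the IgAkMup tumours, and at 7.55 to 8.20 in NASH livers. Its 3 lowest values belonged to the tumours that stood apart, without which it was at -0.43 (adjusted p = 0.0795), and the fall of the Kupffer cell markers beside it was not tested as a part of it.

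Of the 6 terminal components, which build the membrane pore, 4 fell and none rose, and their median was -1.25. C8a and C8b encode the alpha and beta chains of C8. C8a stood at 11.06, 9.22, 10.84 and 10.74 in the MupHe tumours and 10.41, 11.06, 10.22 and 10.71 in the IgAkMup tumours. In NASH livers it was at 12.21, 12.07 and 12.92 and at 12.16, 12.27 and 12.24, above every tumour. C8a fell by 1.78 ± 0.20 (adjusted p = 3.44e-08).

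C8b stood at 9.57, 7.39, 8.87 and 9.57 and at 8.97, 8.97, 8.49 and 9.19 in the MupHe and IgAkMup tumours, against 9.89, 9.84 and 10.91 and 10.52, 10.42 and 10.39 in NASH livers. The groups again did not overlap. C8b fell by 1.45 ± 0.24 (adjusted p = 1.87e-05), and C8g, the gamma chain, fell by 1.05 ± 0.14 (adjusted p = 5.25e-07). C6 fell by 1.58 ± 0.35 (adjusted p = 0.000464). In the 3 tumours that stood apart C6 was at 7.57, 7.22 and 7.71, in the other 5 between 8.68 and 10.30 and in NASH livers between 10.27 and 11.05. Without those 3 tumours it fell by 0.77.

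Hc, which encodes C5, stood at 12.43, 11.90, 12.92 and 13.23 and at 12.00, 12.80, 12.91 and 12.37 in the tumours, around NASH livers at 12.81, 12.86 and 13.22 and at 12.50, 12.56 and 12.77. It differed by -0.22 ± 0.17 (adjusted p = 0.299) and was not called in any alternative or leave-out, with values from -0.32 to 0.23. C9 differed by -0.28 ± 0.14 (adjusted p = 0.11). C9 was called lower without IgAkMup HCC 9 (-0.37, adjusted p = 0.0273) and without the 3 tumours that stood apart (-0.47), and was at 0.13 after quantile normalization. In IgAkMup mice alone C9 was called lower (-0.64, adjusted p = 0.0126), and in MupHe mice it stood at 0.08 (adjusted p = 0.805).

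C4bp, an inhibitor that takes C4b out of the convertase, stood at 13.29, 13.70, 13.32 and 13.11 in the MupHe tumours and 13.04, 12.88, 13.30 and 13.22 in the IgAkMup tumours. All lay above the NASH livers, at 12.41, 12.48 and 12.64 and at 12.72, 12.71 and 12.67. C4bp rose by 0.63 ± 0.09 (adjusted p = 1.37e-06). Cfi, the protease that degrades C3b and C4b, differed by 0.20 ± 0.14 (adjusted p = 0.267) and was called without IgAkMup HCC 8 (0.34, adjusted p = 0.0113). Vtn, vitronectin, differed by 0.04 ± 0.15 (adjusted p = 0.867). It was called lower without the 3 tumours that stood apart (-0.30, adjusted p = 0.0158) and higher after quantile normalization (0.44), as was Cfi (0.68).

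Serping1, the C1 inhibitor, fell by 0.35 ± 0.11 (adjusted p = 0.0105) and stood at 0.11 after quantile normalization, so its direction rested on the scaling. C5ar1, the receptor of C5a on myeloid cells, was the least abundant member, near the low end of the tested range. It stood at 4.46, 4.76, 4.39 and 4.51 in the MupHe tumours, 4.48, 4.25, 5.04 and 4.47 in the IgAkMup tumours, and 3.74 to 4.22 in NASH livers, without overlap. It rose by 0.50 ± 0.13 (adjusted p = 0.00272), beside the rise of the macrophage markers, whose part in it was not tested.

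In all, 7 members did not overlap between the 8 tumours and the 6 NASH livers, or 15.9% of them against 12.0% of all genes tested. C2, C3, C4bp and C5ar1 lay wholly above, and Masp2, C8a and C8b wholly below.

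Each genotype was then taken alone. In MupHe mice 14 of 44 members passed between tumours and NASH livers, 7 higher and 7 lower, against 30.7% of all genes (16% higher, 14.7% lower). Without MupHe NASH 1 or MupHe NASH 6 the count was 7. In IgAkMup mice 21 members passed, 4 higher and 17 lower, against 43.8% (23.2% higher, 20.7% lower). After quantile normalization they were 17 higher and 10 lower. Without the 3 tumours that stood apart 8 members were higher and 5 lower in MupHe mice, and 6 were higher and 17 lower in IgAkMup mice. With only the compared groups fitted, 5 members passed in MupHe and 10 in IgAkMup mice. Some members called over both genotypes in the main fit were not called within a genotype. In MupHe mice these were C1qa, C1qc, Masp1, Cfp, C6, Serping1, F11, F9, Proc and Proz (adjusted p from 0.0607 to 0.502). In IgAkMup mice they were C1qa, C1qb, C1qc, Kng1, Pros1 and F11 (adjusted p from 0.0961 to 0.277). C2 (1.21 ± 0.19 and 1.10 ± 0.19), C3 (0.66 ± 0.21 and 0.95 ± 0.21) and C4bp (0.85 ± 0.12 and 0.41 ± 0.12) rose in both genotypes. C8a (-1.94 ± 0.28 and -1.62 ± 0.28), C8b (-1.36 ± 0.35 and -1.54 ± 0.35) and Mbl2 (-1.54 ± 0.50 and -2.57 ± 0.50) fell in both. In MupHe mice the call of C8b was lost without MupHe NASH 6 (-1.02, adjusted p = 0.0524), and that of C3 without MupHe HCC 7 or MupHe NASH 1 or 2 (0.55 to 0.61). The call of Mbl2 there was lost without MupHe HCC 3 or 4 or MupHe NASH 1 or 2 (-1.52 to -1.18).

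The difference between the genotypes' effects was tested itself, and 1 member passed, against 10% of all genes (4.82% higher, 5.2% lower). C8g changed by -0.56 ± 0.20 in MupHe and by -1.55 ± 0.20 in IgAkMup mice, a difference of -0.99 ± 0.28 (adjusted p = 0.022). That call was lost without MupHe HCC 4 (-0.81, adjusted p = 0.0541), MupHe NASH 2 (-0.96) or IgAkMup NASH 2 (-0.88). The count was 8 without MupHe HCC 3, 4 without IgAkMup HCC 7, 2 without MupHe HCC 7 or IgAkMup HCC 8 or 9, and 9, all with the lower effect in IgAkMup, without the 3 tumours that stood apart.

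Between the tumours themselves, which share a column tag, 6 members differed between IgAkMup and MupHe mice, 3 higher and 3 lower in IgAkMup, against 10.1% of all genes (4.12% higher, 6.01% lower). The 3 fibrinogen genes were higher in IgAkMup tumours, Fga by 0.65 ± 0.19, Fgb by 0.57 ± 0.19 and Fgg by 0.63 ± 0.18 (adjusted p = 0.0308, 0.047 and 0.0282). C8g, Masp1 and Pros1 were lower by -0.69 ± 0.18, -0.65 ± 0.19 and -0.56 ± 0.18. These calls moved with single libraries: the count was 1 without MupHe HCC 2 or IgAkMup HCC 5, 3 without IgAkMup HCC 9, 11 without IgAkMup HCC 8 and 15 without MupHe HCC 3. Without the 3 tumours that stood apart, 10 members were lower in IgAkMup and none higher, with Fga at 0.47 (adjusted p = 0.167). Median centring gave 2 higher and 4 lower. A fit of these 2 groups alone called 0 members and 0 of all genes tested, against 1249 genes in the main fit. Between CD8kMup and MupHe tumours 1 member passed, C4bp, against 1.32% of all genes (0.705% higher, 0.616% lower). It was lower by -0.51 ± 0.12 in CD8kMup (adjusted p = 0.0393). C4bp itself lost its call without MupHe HCC 3 (-0.39, adjusted p = 0.0803). The count was 0 without CD8kMup HCC 4 or 8, 2 without CD8kMup HCC 3, 3 without MupHe HCC 2 and 4 without MupHe HCC 4. Here too a fit of the 2 groups alone called 0 members and 0 of all genes tested, against 163 genes in the main fit.

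Against NC livers, which allow CD8kMup tumours to enter, C8b, C8a and C6 of the terminal components had the lowest differences of the 44 members. Over MupHe, IgAkMup and CD8kMup mice, 29 members passed, 9 higher and 20 lower, against 62.4% of all genes (31.7% higher, 30.6% lower). After quantile normalization they were 18 higher and 15 lower. The members' median was -0.19. Of the 72 metabolic genes 52 were lower and 4 higher (median -1.003), in the P450, bile acid and urea cycle lists for the most part. Fatty acid oxidation (4 lower and 3 higher of 15, median -0.01) and glucose metabolism (2 lower and 1 higher of 8, median 0.08) did not show against NC the fall seen against NASH. After quantile normalization fatty acid oxidation had 9 of 15 higher and 2 lower. Of the members, 10 were higher and 21 lower without the 3 tumours that stood apart. All 6 terminal components were lower: C8b by -2.84 ± 0.20, C8a by -2.20 ± 0.17, C6 by -2.14 ± 0.29, C9 by -0.97 ± 0.12, Hc by -0.71 ± 0.14 and C8g by -0.44 ± 0.12 (adjusted p from 3.96e-12 to 0.0016). The 6 terminal components kept this direction and call after median centring and quantile normalization. C8g was at -0.25 without the 3 tumours that stood apart.

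C8b ran from 11.59 to 12.30 in the 12 NC livers (median 11.97) and from 7.39 to 9.79 in the 11 tumours (median 9.19). Of the extrinsic and common pathway, F5 (-0.60 ± 0.14, adjusted p = 0.000509) and F10 (-0.37 ± 0.08, adjusted p = 0.000132) were lower than in NC livers, and so was F13b of the fibrin group (-0.51 ± 0.09, adjusted p = 3.8e-05). All 3 kept the call without the 3 tumours that stood apart. After quantile normalization F5 (-0.25) and F10 (-0.04) lost it and F13b (-0.32) kept it. F11 ran from 9.35 to 9.90 in NC livers and from 6.03 to 10.29 in tumours, and fell by 1.97 ± 0.35 (adjusted p = 1.86e-05). Of the 3 fibrinogen genes, Fgb alone passed, lower by -0.27 ± 0.12 (adjusted p = 0.0473), and stood at 0.11 after quantile normalization. Its call was also lost on leaving out any 1 of 13 libraries, at differences from -0.28 to -0.20: without MupHe HCC 2, 3 or 7, CD8kMup HCC 4 or 8, IgAkMup HCC 5 or 8, MupHe NC 1 or 3, CD8kMup NC 1 or any IgAkMup NC liver. Group means of Fga, Fgb and Fgg lay below NC in MupHe (-0.62, -0.65 and -0.62) and CD8kMup tumours (-0.35, -0.39 and -0.17). In IgAkMup tumours they lay above NC (0.37, 0.22 and 0.30). F2 ran from 13.48 to 13.71 in NC livers and from 13.11 to 13.87 in tumours, and did not pass.

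In CD8kMup mice alone, 19 members passed between tumours and NC livers, 5 higher and 14 lower, against 33.8% of all genes (16.8% higher, 17% lower). C8b (-2.36 ± 0.37), C8a (-1.65 ± 0.30) and F11 (-1.74 ± 0.63) fell, as did Masp1 (-1.27 ± 0.22) and F5 (-1.08 ± 0.25). C1qb (1.27 ± 0.24), C1qa (1.02 ± 0.25) and C1qc (0.89 ± 0.22) rose. The call of F11 was lost after quantile normalization (-1.66, adjusted p = 0.0555) and without CD8kMup HCC 3 or 4 or any CD8kMup NC liver (-1.81 to -1.54). C3, with 15.92, 15.39 and 15.59 in CD8kMup tumours against 15.67, 15.67 and 15.58 in CD8kMup NC livers, did not pass. The comparisons with NC and with NASH share the tumour libraries of MupHe and IgAkMup mice.

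**Figure D4:**
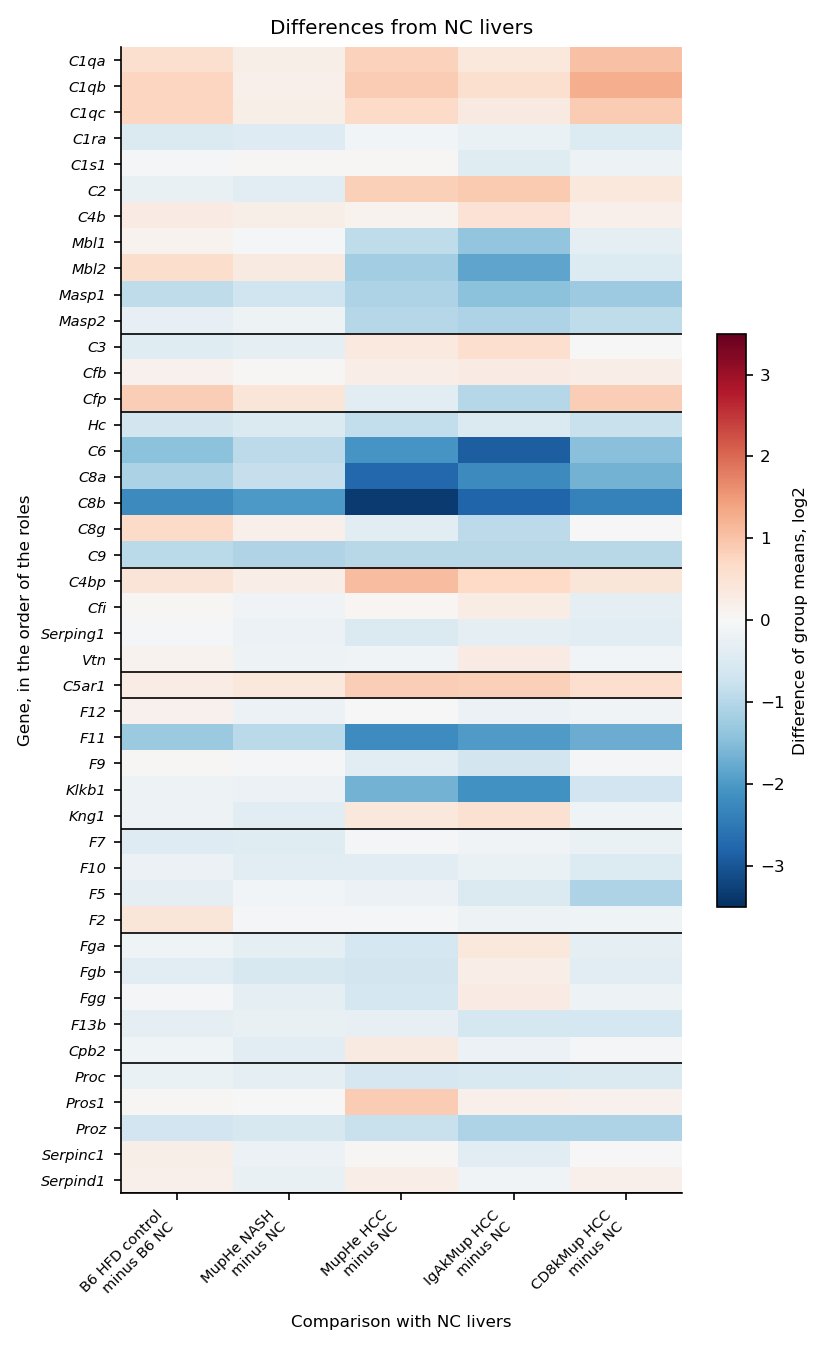
Differences from the NC livers of the same genotype (colour, log2; blue lower, red higher) for the 44 members (rows, in the order of their roles) in B6 HFD control livers, MupHe NASH livers and the 3 tumour groups. C8b is blue in all 5 columns (-1.996 in MupHe NASH livers and -2.36 in CD8kMup tumours), and the C1q genes are red, palest in MupHe NASH livers (0.19 to 0.22); columns from one genotype share their NC livers.

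C8b, C8a and C9 were lower than in NC livers also in fatty livers without a tumour. Between B6 HFD control and B6 NC livers 10 members passed, 4 higher and 6 lower, against 20.6% of all genes (9.59% higher, 11% lower). C8b stood at 9.16, 10.15 and 10.05 in HFD livers and 11.78, 12.17 and 12.08 in NC livers, a difference of -2.23 ± 0.37 (adjusted p = 0.000102). C8a (-1.12 ± 0.30), C9 (-0.94 ± 0.22), Masp1 (-0.88 ± 0.22), Proz (-0.66 ± 0.18) and C1ra (-0.51 ± 0.18) also fell. On the deposited scale C8g rose by 0.68 ± 0.21, unlike C8a and C8b, and C1qb by 0.76 ± 0.24, C1qc by 0.74 ± 0.22 and C4bp by 0.46 ± 0.13. After quantile normalization 7 members were lower and none higher. Without B6 HFD control 3 the count was 4 and without B6 NC 1 it was 5. C8b and C9 kept their call without any 1 of these libraries, and C8a lost its call without B6 HFD control 1 (-0.98, adjusted p = 0.051). The call of C8g was lost without B6 HFD control 2 or 3 or B6 NC 1 or 2 (0.60 to 0.66), and those of C1qb and C1qc without B6 HFD control 3 or B6 NC 1 (0.54 to 0.63). The call of C4bp was lost without B6 NC 1 (0.40), those of Masp1 and Proz without B6 HFD control 3 (-0.66 and -0.49), and that of C1ra without any library but B6 HFD control 2 (-0.57 to -0.36). With the IgAkCLM HFD controls in place of B6, 2 members passed, C8b at -1.50 (adjusted p = 0.0244) and C9 at -0.92 (adjusted p = 0.0193), an exchange that also changes genotype. With a weight per library 18 members passed (7 higher, 11 lower), and with only the compared groups fitted 17 (7 higher, 10 lower).

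In MupHe mice 2 members passed between NASH and NC livers, both lower, against 1.93% of all genes (0.948% higher, 0.981% lower). With a weight per library 18 members were called lower, and with only the compared groups fitted 17. C8b stood at 9.89, 9.84 and 10.91 in NASH and 12.24, 12.09 and 12.30 in NC livers, a difference of -1.996 ± 0.37 (adjusted p = 0.0022). C9 fell by 1.05 ± 0.22 (adjusted p = 0.0069), a call lost without MupHe NASH 1 (-0.95, adjusted p = 0.0549).

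In the main fit, whose spread also takes in the tumours, NASH livers and HFD control livers did not differ detectably in any member. Over the 2 NASH and the 2 control groups, 0 of 44 members passed, against 1.32% of all genes, and 41 lay within 2-fold, against 95.5% of all genes. The exceptions were C6, F11 and Klkb1, whose intervals were wider. At an unadjusted p under 0.05 stood 2 members, C1s1 (-0.35) and F2 (-0.28). Within the tag shared by MupHe NASH and IgAkCLM controls 0 members passed (0.559% of all genes; 5 at an unadjusted p under 0.05), and within that of IgAkMup NASH and B6 controls 0 (0.251%; 0 unadjusted). With a weight per library limma called 10 members lower in the first of these comparisons, 11 in the second and 1 in the third. With only the compared groups in the fit it called 2, 2 and 0. Of all genes the weights gave 2386, 1941 and 717 calls, and the fit of the compared groups 862, 745 and 164.

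No member differed detectably between MupHe and B6 mice in NC livers. Between MupHe and B6 NC livers 0 members passed, against 0.0486% of all genes, 0 stood at an unadjusted p under 0.05, and 40 lay within 2-fold, against 92% of all genes. The median difference was 0.07.

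The members varied more between tumours of a group than between livers of a group. The standard deviation within the 3 tumour groups exceeded that within the 8 other groups for 44 of 44 members, which was also so for 90.7% of all genes tested. The median ratio was 2.42 for the members and 1.82 for all genes. Klkb1 had the largest ratio, 1.36 within tumour groups against 0.147 elsewhere. F11 (1.40 against 0.205), Mbl2 (1.18 against 0.207) and F9 (0.741 against 0.105) also varied widely among tumours. C5ar1 had the smallest ratio, 1.03.

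**Figure D5:**
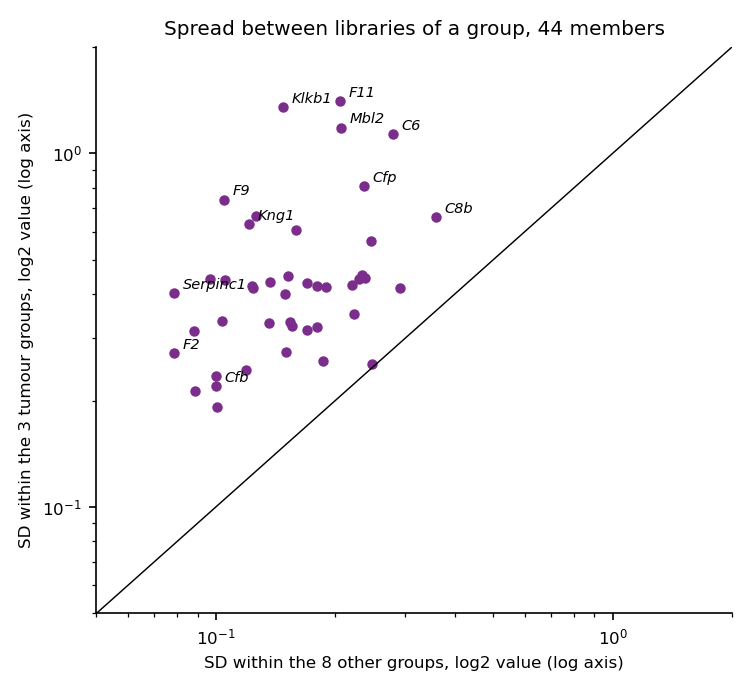
Standard deviation between libraries of a group for the 44 members, within the 3 tumour groups (vertical axis) against the 8 other groups (horizontal axis), in log2 values on log axes; the line marks equal spread and each point is a gene. All 44 points lie above the line, Klkb1 furthest from it (1.36 against 0.147).

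Several members are neighbours in the genome, located here by GENCODE M21 on GRCm38. Their calls are given here for tumours against NASH livers over MupHe and IgAkMup mice together. C8b (chr4:104766317-104804548, plus strand) and C8a (chr4:104815679-104876398, minus strand) face each other across 11.1 kb, and both fell. F11 (chr8:45241174-45262031) and Klkb1 (chr8:45266689-45294859), both on the minus strand and 4.66 kb apart, also fell, and both were lowest in the tumours that stood apart. Fgg, Fga and Fgb lie within chr3:83007724-83049863, and none passed. F7, F10 and Proz lie in a row on chromosome 8, and of them Proz alone was called. C2 (chr17:34862604-34898265) ends 86 bases before Cfb (chr17:34856374-34862518) begins, both on the minus strand. C2 rose while the interval of Cfb reached 0, and an annotated readthrough gene spans both, so reads of that transcript cannot be assigned to one of them with certainty.

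The rest of the pathway was read from lists of other complement and of other coagulation and fibrinolysis genes. Of 23 other complement genes 20 were tested, and 5 rose and 9 fell between tumours and NASH livers (median -0.39). Those that differed most were Fcna, a ficolin of the lectin pathway (-2.57 ± 0.28), Cfd, factor D of the alternative pathway (-2.37 ± 0.61), the collectin Colec10 (-2.17 ± 0.30) and Vsig4, a complement receptor of Kupffer cells (-1.85 ± 0.36). Of 25 other coagulation and fibrinolysis genes 22 were tested, and 7 rose and 6 fell (median 0.02). Plat and Plau, the plasminogen activators, rose by 1.38 ± 0.19 and 1.18 ± 0.36. F8, which encodes factor VIII and is made by endothelial cells, fell by 1.32 ± 0.16. Of 7 endothelial markers 3 fell and 2 rose, and their part in the fall of F8 was not tested.

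Acute phase proteins, which hepatocytes secrete during inflammation, did not move as 1 block. Of 13 genes 4 rose and 4 fell (median 0.09). Lcn2 rose by 3.44 ± 0.30, while Hamp (-1.92 ± 0.50), Saa2 (-1.55 ± 0.38) and Saa4 (-1.43 ± 0.26) fell. Of 15 liver transcription factors and genes of IL6 signalling 1 rose, Socs3 (0.88 ± 0.17), and 5 fell, among them the bile acid receptor Nr1h4 (-0.72 ± 0.12).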

How the data were processed

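PolyA RNA was sequenced from stranded TruSeq libraries made from 100 ng of RNA, per the labels' protocols. The values are regularized log2 values in 1 table that the authors deposited, on mm10. STAR and Cuffdiff are named for the 29 HFD samples by the submitters' processing notes, which give STAR, DESeq2 and HOMER for the other 12, with no versions or roles. Depth cannot be had from these values, and no interval for counting error is given. Of 41 columns, 6 whose names match both of 2 groups were not used. Except for NC, columns match a group and not a single sample, so libraries are named by the number in their column name.

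limma 3.58.1 in R 4.3.3 fitted 1 mean per group over all 11 groups (empirical Bayes with a trend) to genes with a mean of at least 3. Tumours and livers thus shared 1 estimate of the spread per gene. P-values were adjusted by Benjamini-Hochberg over the 12337 genes, with a threshold of 0.05, in 14 comparisons, and are two-sided. The scripts were tested on simulated data. Figures were drawn with Python 3.11.15 and matplotlib 3.10.9. The members and the gene lists were chosen with earlier results of these data known, as were the 3 tumours that stand apart. Values per library are given for the 6 largest falls, the 6 largest rises and the 6 narrowest intervals within 0.5 of 0 between tumours and NASH livers, and for the best known gene of each role; from every other list at most 4 called genes are named. The result of 1 gene of these lists is not reported here. Other genes, such as Kng2, were named after their values were seen.

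Alternatives were a mean of at least 5, no filter, median centring, quantile normalization, a weight per library, a fit of the compared groups alone, other controls by column tag, leaving out the 3 tumours and leaving out each library. Only NC samples carry replicate numbers from their titles. Same-numbered B6 and MupHe NC samples did not deviate together, with correlations of their deviations of 0.045, 0.0837 and 0.0965, and were not treated as pairs.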

Additional observations from a re-analysis of the deposited data

Results flagged for a closer look

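C8a stood at 9.22 in MupHe HCC 3, far below the nearest of the other 3 MupHe tumours at 10.7. Of 88 groups of 4 libraries examined, 1 held such a library, and chance alone gives about 5% of groups. MupHe HCC 3 is 1 of the 3 tumours that stood apart on the second principal component.

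The fall of C8g between tumours and NASH livers was larger in IgAkMup than in MupHe mice, with a difference of -0.99 ± 0.28 (limma, adjusted p = 0.022). All IgAkMup tumours (9.16 to 10.44) lay below all IgAkMup NASH livers (11.23 to 11.58), and 3 of 4 MupHe tumours lay below all MupHe NASH livers. The NASH groups of the 2 genotypes carry different column tags, and tag and genotype cannot be told apart.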

How the results depend on the processing

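Quantile normalization turned the sign of called members in 3 comparisons: Serping1 (0.11) and Proc (0.039) between tumours and NASH livers, F2 (0.26), Proc (0.16) and Serping1 (0.34) between IgAkMup tumours and NASH livers, and Fgb (0.11) between tumours and NC livers; the cause was not tested. The main fit pools the spread of each gene over all 11 groups, although it was larger within the tumour groups for 44 of 44 members. Comparisons between tumours thus use a spread smaller than their own, and comparisons between livers a larger one. With only the compared groups fitted, the spread comes from fewer samples and from those groups alone. The calls were then 5 for MupHe and 10 for IgAkMup tumours against NASH, 2 for NASH against HFD control livers, 2 for MupHe NASH against IgAkCLM HFD control, 17 for B6 HFD control against B6 NC, 17 for MupHe NASH against NC, and 0 for the difference of tumour effects, for IgAkMup and for CD8kMup against MupHe tumours. With a weight per library they were 6 for the difference of effects, 10, 11 and 1 for the 3 comparisons of NASH with HFD control livers, 18 for B6 HFD control against NC, 18 for MupHe NASH against NC, 2 for IgAkMup and 0 for CD8kMup against MupHe tumours. The difference of effects gave 2 calls with a mean of at least 5, 2 after median centring, 0 after quantile normalization and 9 without the 3 tumours. Without those tumours IgAkMup against MupHe tumours gave 10 calls and CD8kMup against MupHe tumours 4, and the latter gave 0 after median centring and 2 after quantile normalization. MupHe NASH against NC gave 1 call after quantile normalization, and IgAkCLM in place of B6 HFD control gave 2. Leaving out each library in turn gave 21 to 25 calls for tumours against NASH (30 to 33 members within 2-fold), 7 to 17 for MupHe, 14 to 24 for IgAkMup, 0 to 8 for the difference of effects, 27 to 31 for tumours against NC, 13 to 16 for CD8kMup tumours against NC, 4 to 11 for B6 HFD control against NC, 1 to 2 for MupHe NASH against NC, 1 to 15 for IgAkMup and 0 to 4 for CD8kMup against MupHe tumours, and 0 to 0 for the other comparisons. With the replicate block, MupHe against B6 NC livers gave 0 calls, as did a fit of the NC groups alone without it, an alternative chosen after seeing the data. 2 of the 3 numbers correlated best with their own. No paired analysis was possible for the other comparisons because their columns carry no replicate number from the titles. Leaving out the 3 tumours was not run where a comparison does not use them. Groups of 3 or 4 libraries, the unknown depth and the column tags limit every comparison.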
